A study of Mus musculus with 8 samples.

Results

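The renin-angiotensin system was followed in whole mouse kidney through 9 genes: Ren1, Agt, Ace, Agtr1a, Agtr1b, Mme, Enpep, Atp6ap2 and Mas1. They were taken as every non-control probe whose RefSeq accession belongs to one of these symbols, which gave 11 probes on an array with probes for 20660 named genes. Of the 9 genes 8 were measured well enough to be tested, among 14209 genes tested in all, and the angiotensin receptor gene Agtr1b was not well above background on any array. RNA came from 4 kidney samples of mice given cinacalcet hydrochloride at 1 mg per g body weight, and from 4 of mice on standard chow, all after 5 days. Per the labels all mice were 12-week-old males. No strain or transgene is named, nor whether a sample was 1 animal or a pool, so p-values rest on the spread between samples, which may be technical. Cinacalcet is a calcimimetic, a drug that makes the calcium-sensing receptor respond to less calcium. One-colour Agilent arrays with Cy3-labelled RNA were used, 1 per sample.

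Renin, an aspartyl protease made by the juxtaglomerular cells of the afferent arteriole, cuts angiotensinogen to angiotensin I. Angiotensin-converting enzyme then makes angiotensin II, which acts on type 1 receptors to constrict vessels, raise tubular sodium reabsorption and feed back on renin. Other membrane peptidases of the kidney, neprilysin and aminopeptidase A among them, trim or break down these peptides, and the Mas receptor answers to a shorter product. Renin release is unusual in that a rise of calcium inside the juxtaglomerular cell lowers it, and the calcium-sensing receptor has been described on these cells in the mouse.

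Levels are log2 intensities relative to the 75th percentile of each array, so a level compares arrays for 1 probe and does not rank genes. Differences are cinacalcet minus control levels, or the fold they stand for, from limma, with p-values adjusted over all 14209 genes by the Benjamini-Hochberg method, and a change is called at an adjusted p under 0.05. The 75th percentile of spot intensity ran from 202.9 to 257.1, 51.8% to 57.9% of spots were well above background, and all 10 kidney marker genes, such as the uromodulin gene Umod, were measured. Precision is limited by having 4 arrays in a group. Against the label male, the arrays control 4, cinacalcet 2 and cinacalcet 3 had Ddx3y, Kdm5d, Uty and Eif2s3y, 4 genes of the Y chromosome, at background. On these 3 arrays Xist was at 0.95, 0.46 and 0.73, against -4.22 or lower on the other 5. Results are therefore also given with Y signal (present or not) as a block, and for the 5 Y-positive arrays, 3 control and 2 cinacalcet, and the 3 Y-negative ones, 1 control and 2 cinacalcet. In whole kidney, fewer cells of a type and less RNA per cell cannot be told apart.

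Ren1 and Ace fell and Agt rose with cinacalcet. These 3 of the 8 measured members passed, where 8.02% of all genes tested did (3.37% higher and 4.64% lower). Groups did not overlap for 4 members, Ren1, Agt, Ace and Atp6ap2, against 17.8% of all genes. The median log2 fold change of the 8 members was -0.30, with 6 estimates negative and 2 positive, and that of all genes was -0.03. With Y signal as a block 4 members passed, Mas1 being the addition, where 17% of all genes passed. On the 5 Y-positive arrays 3 passed, Agt, Ace and Mas1, where 7.85% of all genes did. Leaving out single arrays gave 0 members called without control 1, control 2 or cinacalcet 3, 4 without control 4, and 1 without any other array. The share of all genes called was 2.25%, 1.54% and 1.96% in the first 3 of these fits and 23.6% without control 4. It was 1.72% without control 3 and 6.78%, 2.06% and 3.75% without cinacalcet 1, 2 and 4.

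**Figure D1:**
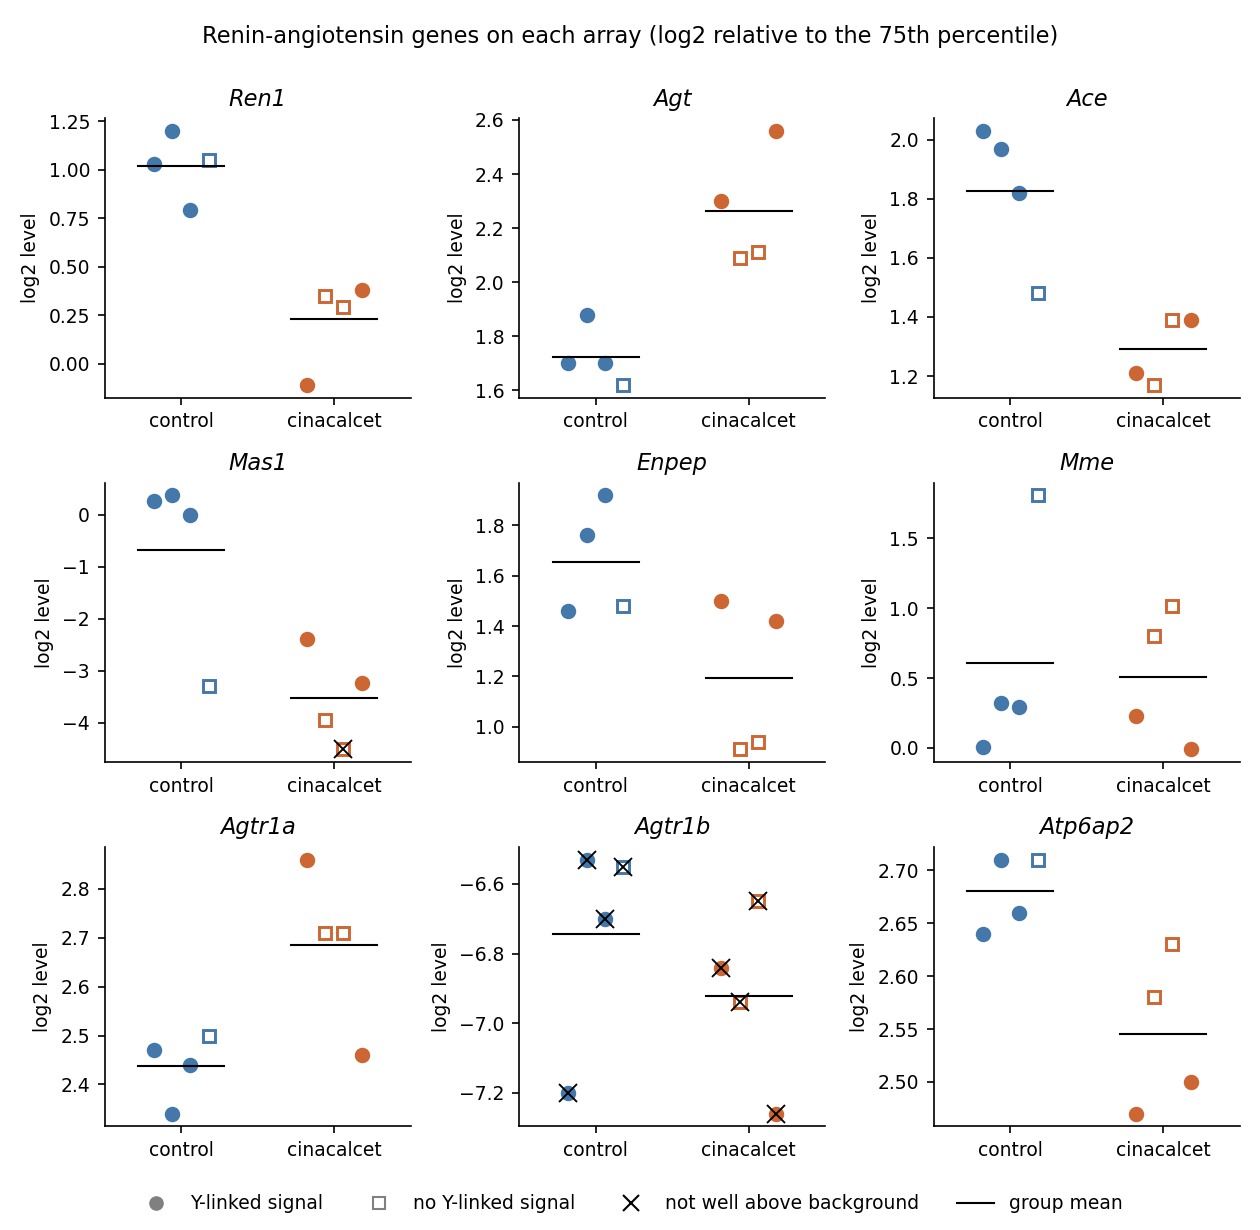
Level of each of the 9 genes on each array, as log2 intensity relative to the 75th percentile of the array, with controls left and cinacalcet right in each panel (the scales differ). Filled circles are arrays with Y-linked signal, open squares arrays without it, crosses spots not well above background, and lines group means. All 4 cinacalcet arrays lie below all 4 controls for Ren1 and Ace and above them for Agt, while control 4 lies with the cinacalcet arrays for Mas1.

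Ren1, the renin gene and the enzyme step that starts the cascade, was at 1.03, 1.20, 0.79 and 1.05 on control arrays 1 to 4. On cinacalcet arrays 1 to 4 it was at -0.11, 0.35, 0.29 and 0.38. Every cinacalcet array was below every control array, and cinacalcet 1 was the lowest of all. The mean went from 1.02 ± 0.17 (SD, n = 4) to 0.23 ± 0.23 (SD, n = 4), a 1.73-fold fall (log2 fold change -0.79, SE 0.13, limma adjusted p = 0.0183). The exact two-sided permutation test of the 8 values gave p = 0.0286, the smallest that 4 against 4 samples allow.

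The Ren1 estimate was negative in both sets of arrays. The log2 fold change was -0.82 with the block (limma adjusted p = 0.0102), -0.87 on the 5 Y-positive arrays (limma adjusted p = 0.0579) and -0.73 on the other 3 (limma adjusted p = 0.104). Values on the Y-negative arrays, and tests that set them against the others, rest on 1 control array, which is assumed to vary like the rest. With replicate number as a block the value was -0.79 and did not pass (limma adjusted p = 0.0878). It also missed the threshold without control 1, control 2 or cinacalcet 3, at adjusted p of 0.0550, 0.0588 and 0.0518.

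The array also carries a probe for Ren2, the near-identical renin copy that some mouse strains have beside Ren1 and others lack. The labels do not name the strain, and no probe sequence is given in the files, so signal of the 2 genes may be shared between both probes. The Ren2 probe was at 6.19, 6.65, 6.25 and 6.83 on control arrays and at 5.26, 5.74, 5.74 and 5.64 on cinacalcet arrays. These groups did not overlap either, and the fall was 1.85-fold (log2 fold change -0.88, SE 0.17, limma adjusted p = 0.0260). The Ren2 level minus the Ren1 level of the same array was 5.17 to 5.78 in controls and 5.26 to 5.45 with cinacalcet. Renin signal was thus lower by a similar amount on both probes.

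Agt, which encodes angiotensinogen, the substrate of renin, was at 1.70, 1.88, 1.70 and 1.62 on control arrays. On cinacalcet arrays it was at 2.30, 2.09, 2.11 and 2.56, all above the highest control. The mean rose from 1.73 ± 0.11 to 2.26 ± 0.22 (SD, n = 4 each), a 1.45-fold change (log2 fold change 0.54, SE 0.12, limma adjusted p = 0.0357, exact permutation p = 0.0286). It was 0.60 with Y signal as a block (limma adjusted p = 0.00744), 0.67 on the 5 Y-positive arrays (adjusted p = 0.0396) and 0.48 on the other 3 (adjusted p = 0.158). With replicate number as a block the value was 0.54 and did not pass (limma adjusted p = 0.151). The call also missed the threshold with each array but control 4 left out, at adjusted p of 0.0540 to 0.102.

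Agt is also made by fat and liver, so markers of both were set beside it. Of 10 adipose markers 8 were measured and had negative estimates, with a median log2 fold change of -1.36 and 1 called, the brown fat gene Ucp1. The mean adipose marker level was 0.69 to 3.49 on control arrays and -1.56 to 1.51 on cinacalcet arrays. Of 6 liver markers 4 were measured with a median of -0.30, and the thyroid hormone carrier gene Ttr was called as lower (limma adjusted p = 0.0471), a call that held without control 4 and was lost without any other array. The other 3 measured liver genes, named after their values were seen, were the albumin gene Alb at -0.96 (limma adjusted p = 0.163) and, with positive estimates that did not pass, Fgb, a fibrinogen chain gene, at 0.52 and the protease inhibitor gene Serpina1a at 0.35. The mean liver marker level was -0.03 to 0.58 in controls and -0.60 to 0.23 with cinacalcet. With Y signal as a block 2 liver markers fell, Alb at -1.24 (limma adjusted p = 0.00478) and Ttr at -1.16 (adjusted p = 0.0162). With this block 2 adipose markers fell as well, and none of either list rose, where 17% of all genes were called. On the 5 Y-positive arrays 2 liver markers and 1 adipose marker fell and none rose, where 7.85% of all genes were called. The part of fat or liver RNA in the Agt values was not tested.

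Ace, which encodes the converting enzyme of endothelium and proximal tubule brush border, was at 2.03, 1.97, 1.82 and 1.48 on control arrays. On cinacalcet arrays it was at 1.21, 1.17, 1.39 and 1.39. The groups were separated by a small gap, since control 4 lay close to the highest cinacalcet arrays. The mean fell 1.45-fold, from 1.82 ± 0.25 to 1.29 ± 0.12 (SD, n = 4 each; log2 fold change -0.54, SE 0.13, limma adjusted p = 0.0449, exact permutation p = 0.0286). It was -0.48 with Y signal as a block (limma adjusted p = 0.0297), -0.64 on the 5 Y-positive arrays (adjusted p = 0.0363) and -0.20 on the other 3 (adjusted p = 0.481). The test of the difference between both sets gave 0.44 (SE 0.18, limma adjusted p = 0.398).

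The Ace call was close to the threshold. With replicate number as a block it did not pass (log2 fold change -0.54, limma adjusted p = 0.167), nor with normexp background correction (-0.47, adjusted p = 0.0550), but it passed when quantile normalization followed normexp (-0.46, adjusted p = 0.0307). With each array but control 4 left out the adjusted p was 0.0724 to 0.125, and without control 4 it was 0.00856 with a log2 fold change of -0.65. The 8 endothelial markers had 4 positive and 4 negative estimates, with a median log2 fold change of 0.03, and none was called on the 8 arrays. With Y signal as a block 1 was called, Flt1 at 0.33 (limma adjusted p = 0.0381), where 17% of all genes were. Lowest in p among these markers on the 8 arrays were Flt1, a receptor gene for vascular endothelial growth factor, at 0.30 (adjusted p = 0.0742) and Pecam1, the gene of the adhesion molecule CD31, at 0.23 (adjusted p = 0.237).

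**Figure D2:**
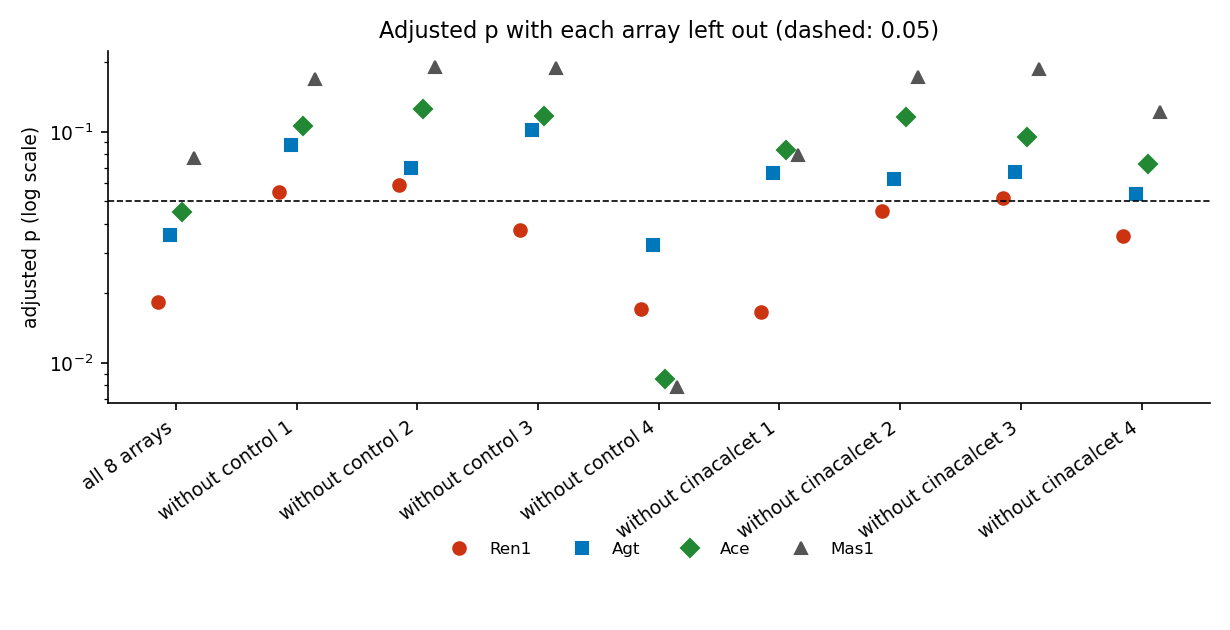
Adjusted p of Ren1, Agt, Ace and Mas1 in limma with all 8 arrays and with each array left out, on a log axis, with the threshold of 0.05 dashed. Ren1 lies between 0.0166 and 0.0588, most Agt and Ace points lie above the line once 1 array is gone, and Mas1 drops to 0.00786 without control 4.

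The start regions of the 3 genes that passed are shown because these genes moved in the same samples in both directions. They are 300 bases each, 250 before the annotated start and 50 from it on, from RefSeq on GRCm38.p6, which held such a window for 8 of the 9 members. The array was annotated on the older build mm9, and its coordinates are not used. Capitals mark the motifs searched on both strands: TATAAA (the TATA box), GGGCGG (a GC box), ATAAATCA (letters of the HOX and PBX element described in the mouse renin promoter) and AGAACA (a half-site of the glucocorticoid receptor). The windows are Ren1 at chr1:133350424-133350723 on the plus strand, Agt at chr8:124569657-124569956 on the minus strand and Ace at chr11:105967698-105967997 on the plus strand.
Ren1: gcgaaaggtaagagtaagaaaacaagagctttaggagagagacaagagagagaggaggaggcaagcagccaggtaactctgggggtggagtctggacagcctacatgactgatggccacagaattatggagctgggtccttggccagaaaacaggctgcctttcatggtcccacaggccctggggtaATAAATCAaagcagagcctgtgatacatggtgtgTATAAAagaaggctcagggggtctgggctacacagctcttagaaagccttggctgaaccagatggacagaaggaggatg
Agt: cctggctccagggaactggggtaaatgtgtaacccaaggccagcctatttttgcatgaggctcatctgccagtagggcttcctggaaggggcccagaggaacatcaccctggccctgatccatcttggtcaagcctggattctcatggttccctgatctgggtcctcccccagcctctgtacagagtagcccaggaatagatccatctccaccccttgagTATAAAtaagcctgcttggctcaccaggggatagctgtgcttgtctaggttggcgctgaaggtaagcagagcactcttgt
Ace: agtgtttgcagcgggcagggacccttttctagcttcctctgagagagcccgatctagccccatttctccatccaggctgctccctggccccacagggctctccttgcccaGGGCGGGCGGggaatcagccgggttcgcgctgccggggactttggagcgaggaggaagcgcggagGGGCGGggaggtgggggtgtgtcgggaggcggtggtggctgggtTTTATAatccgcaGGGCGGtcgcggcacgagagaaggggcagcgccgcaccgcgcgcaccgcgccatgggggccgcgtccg

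TATAAA was found in all 3 windows, starting 29 bases before the start in Ren1, 30 in Agt and, on the opposite strand, 31 in Ace. It is present in 13.6% of 32851 windows of this length. Ren1 alone of the 3 held ATAAATCA, 63 bases before the start, found in 0.977% of windows. Ace alone of the 3 held GGGCGG, at 4 places of which 2 overlap, against 35.7% of windows with at least 1. AGAACA was in none of the 3 and is in 19% of windows. Ace has another annotated start, whose window is not shown and held none of these motifs. All of these are matches of letters and say nothing of binding.

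Mas1, which encodes the G protein-coupled receptor of the shorter angiotensin peptide, had the largest difference among the members and did not pass on all 8 arrays. It was at 0.26, 0.38 and -0.01 on control arrays 1 to 3 and at -3.29 on control 4. On cinacalcet arrays it was at -2.38, -3.95, -4.51 and -3.23, the third of these not well above background. Control 4 thus lay inside the range of the cinacalcet arrays, while the other 3 controls lay above all of them. Means were -0.66 ± 1.76 and -3.52 ± 0.92 (SD, n = 4 each), with a log2 fold change of -2.86 (SE 0.85, limma adjusted p = 0.0772, exact permutation p = 0.0857). In signal, the spots read 308, 287 and 225 on controls 1 to 3, 20.8 on control 4 and 11.1 to 47.8 with cinacalcet.

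A second Mas1 probe showed the same split on dimmer spots. It was at -1.51, -1.45 and -1.80 on controls 1 to 3, at -5.37 on control 4 and at -5.54 to -3.97 with cinacalcet. It was above background on 3 control and 2 cinacalcet arrays, and its difference was -2.03 (SE 0.86, limma adjusted p = 0.186 over all probes).

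The Mas1 comparison depended on control 4 and on the split by Y-linked signal. Without control 4 the log2 fold change was -3.73 (limma adjusted p = 0.00786). With the block it was -2.28 (limma adjusted p = 0.0142), while the 5 Y-positive arrays gave -3.02 (adjusted p = 0.0203). On the 3 Y-negative arrays it was -0.94 (adjusted p = 0.207). The Y-negative minus the Y-positive effect was 2.08 (SE 0.48, limma adjusted p = 0.311). That interaction passed for 0 of 14209 genes in limma, with 12.8% at an unadjusted p under 0.05. With normexp background correction, which adds an offset to every spot, the value was -1.51 (adjusted p = 0.0468), and -1.46 with quantile normalization after it (adjusted p = 0.0592).

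Genes that androgen raises in mouse kidney are set beside Mas1 because control 4 was the lowest control for both. The mean level of the 8 measured of 9 such genes, for example Kap, the kidney androgen-regulated protein gene, was 6.23 to 6.45 on controls 1 to 3. It was 1.59 on control 4, 4.95 on each of cinacalcet 1 and 4, and 0.91 and 0.52 on cinacalcet 2 and 3. All 8 had negative estimates (median log2 fold change -2.13) and none was called on the 8 arrays. With Y signal as a block 4 were called as lower, where 17% of all genes were called. On the 5 Y-positive arrays 6 were called as lower and none as higher, where 7.85% of all genes were called. The lowest p on the 8 arrays were those of the polyamine enzyme gene Odc1, at -1.45 (limma adjusted p = 0.0564), and of Kap, at -1.19 (adjusted p = 0.201). Of the 5 genes higher in female kidney none was called on the 8 arrays and 4 had positive estimates. Among these Cyp4a14, a fatty acid hydroxylase gene, was at 4.07 (adjusted p = 0.0882) and Prlr, the prolactin receptor gene, at 1.70 (adjusted p = 0.281). Slc22a7, named after its value was seen, was at -1.28 (adjusted p = 0.374). With Y signal as a block 1 rose, Cyp4a14 at 3.34 (limma adjusted p = 0.0477), and 1 fell, Slc22a7 at -1.88 (adjusted p = 0.0247). On the 5 Y-positive arrays 1 rose and 1 fell. The part of androgen response in the Mas1 values was not tested.

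**Figure D3:**
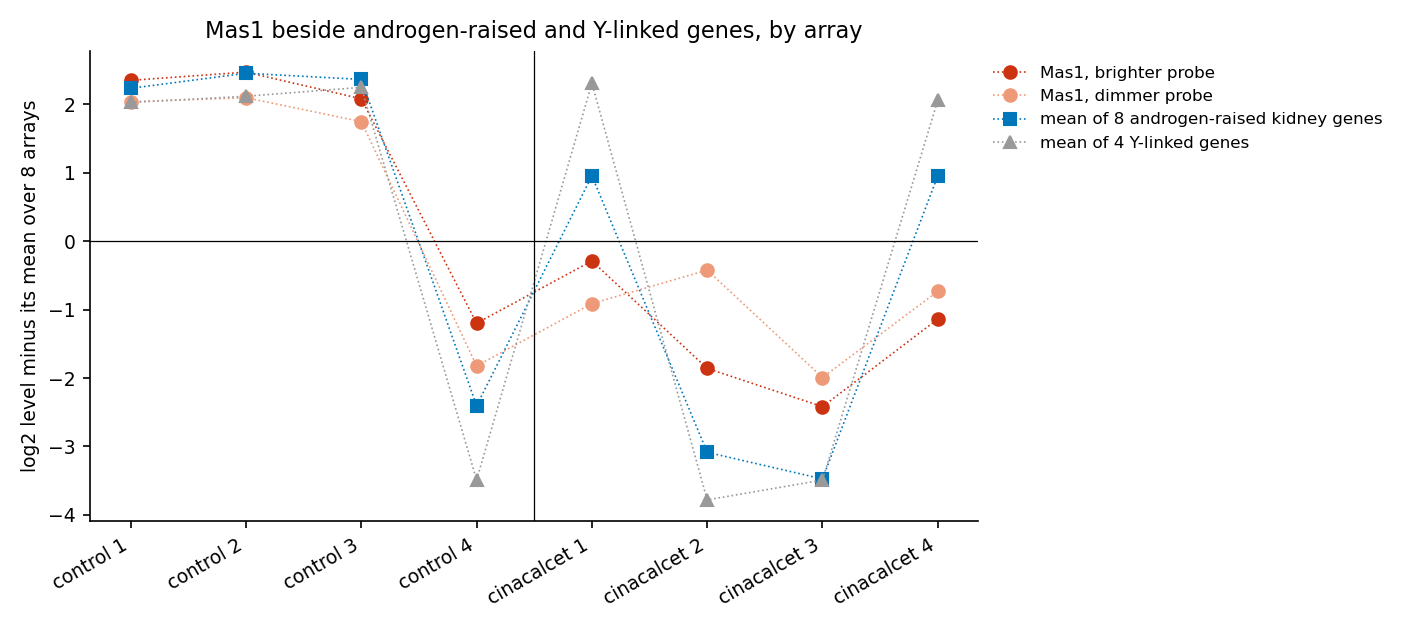
Log2 level minus its own mean over the 8 arrays for both Mas1 probes, the mean of 8 androgen-raised kidney genes and the mean of 4 Y-linked genes, by array. Controls 1 to 3 are high in all 4 series and control 4 is low in all 4, while cinacalcet 1 and 4 are high in Y-linked genes, and Mas1 is below its own mean on all 4 cinacalcet arrays.

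Among the members, the membrane peptidases other than Ace did not pass. Enpep, which encodes aminopeptidase A, the enzyme that turns angiotensin II into angiotensin III, was at 1.46, 1.76, 1.92 and 1.48 on control arrays and at 1.5, 0.91, 0.94 and 1.42 on cinacalcet arrays. The groups overlapped, and the low values were those of cinacalcet 2 and 3, the 2 Y-negative cinacalcet arrays. The log2 fold change was -0.46 (SE 0.17, limma adjusted p = 0.130) and -0.36 with Y signal as a block (adjusted p = 0.071). It was -0.25 on the 5 Y-positive arrays (adjusted p = 0.305) and -0.56 on the Y-negative arrays, where control 4 is the only control.

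Mme, which encodes neprilysin, a peptidase that degrades angiotensins and other peptides, was at 0.01, 0.32, 0.29 and 1.81 on control arrays and at 0.23, 0.80, 1.02 and -0.01 on cinacalcet arrays. The 3 Y-negative arrays were the 3 highest, and on a second probe they were highest as well. The log2 fold change was -0.09 (95% interval -1.04 to 0.85, limma adjusted p = 0.9) and 0.17 on the second probe (adjusted p = 0.798 over all probes). Its sign turned without control 4, to 0.31 (adjusted p = 0.403), and without cinacalcet 4, to 0.08 (adjusted p = 0.925). The value was -0.90 on the Y-negative and -0.09 on the Y-positive arrays, a difference of -0.80 (SE 0.23, limma adjusted p = 0.319).

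Among the receptors, Agtr1a, the main type 1 angiotensin receptor gene of mouse kidney, was at 2.47, 2.34, 2.44 and 2.50 on control arrays and at 2.86, 2.71, 2.71 and 2.46 on cinacalcet arrays. Of the cinacalcet arrays 3 lay above all controls and cinacalcet 4 lay among them. The log2 fold change was 0.24 (SE 0.10, limma adjusted p = 0.144) and 0.23 to 0.24 with the block or on the 5 arrays. The paralog Agtr1b, in mouse mainly a gene of the adrenal gland, read a signal of 1.53 to 2.51 and was not well above background on any of the 8 arrays. Among 9 adrenal markers 5 were measured, none was called, and the steroidogenic enzyme genes Cyp11b1, Cyp11b2 and Cyp11a1, named after their values were seen, were not kept. Lowest in p were Hsd3b1, a steroid dehydrogenase gene above background on 2 of 4 control arrays, at 1.67 (adjusted p = 0.0592) and Nr5a1, the steroidogenic factor gene, at 0.25 (adjusted p = 0.143).

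Atp6ap2 encodes the prorenin receptor, which is also an accessory subunit of the vacuolar proton pump. It was at 2.64, 2.71, 2.66 and 2.71 on control arrays and at 2.47, 2.58, 2.63 and 2.50 on cinacalcet arrays. The groups did not overlap (exact permutation p = 0.0286), but the difference was small, at a log2 fold change of -0.13 (95% interval -0.28 to 0.02, limma adjusted p = 0.221).

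**Figure D4:**
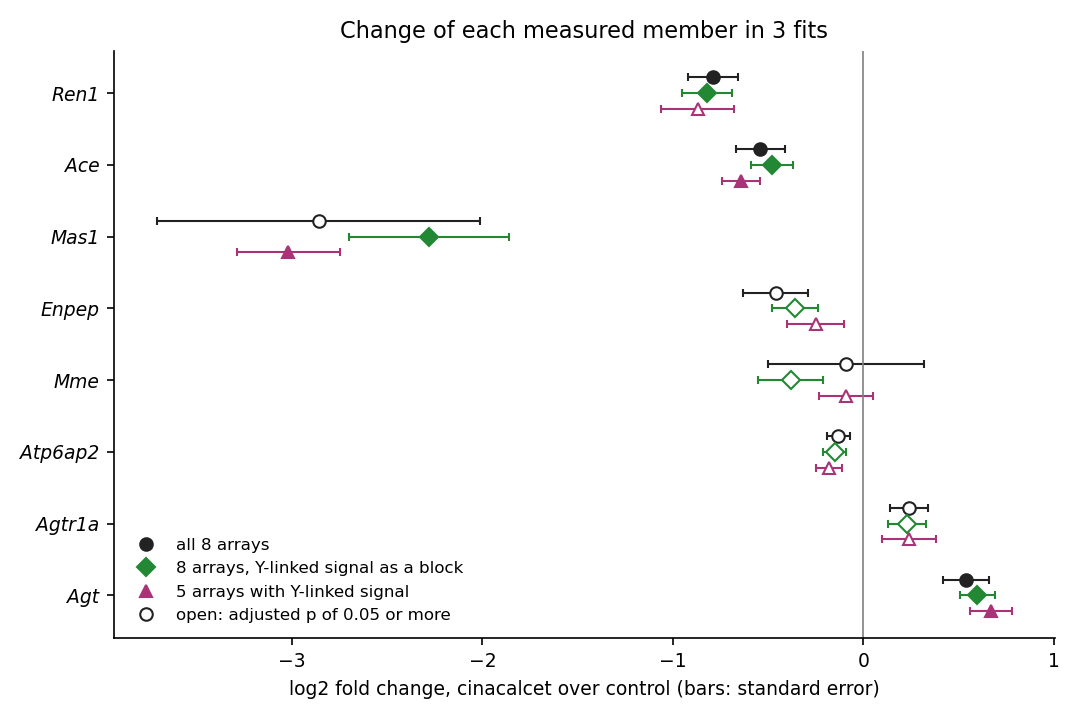
Log2 fold change of each measured member, cinacalcet over control, with standard error bars, for all 8 arrays (circles), 8 arrays with Y signal as a block (diamonds) and the 5 Y-positive arrays (triangles). Filled symbols passed an adjusted p of 0.05, which Ren1 did in 2 of the 3 fits, Ace and Agt in all 3 and Mas1 in 2.

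Other genes that process angiotensins fell or did not pass. Of 18 such enzymes 15 were measured, 2 fell and none rose, with a median log2 fold change of -0.20. Mep1b, the beta subunit gene of the brush border protease meprin, fell 2.32-fold (log2 fold change -1.22, limma adjusted p = 0.0372). Rnpep, encoding aminopeptidase B, fell 1.35-fold (-0.43, adjusted p = 0.0465). The mast cell chymase genes Cma1 and Mcpt4 and the neutrophil protease gene Ctsg, also named after their values were seen, were not kept.

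Of 15 other receptors and receptor partners 11 were measured, 1 fell and none rose, with a median of -0.17. Arap1, a GTPase-activating protein gene of membrane traffic, fell 1.30-fold (-0.38, limma adjusted p = 0.0211). The second angiotensin receptor gene Agtr2, named after its values were seen, was not kept. The Mep1b, Rnpep and Arap1 calls were each lost without any one of controls 1 to 3 or cinacalcet 2 or 3, and the first pair also without cinacalcet 4, at adjusted p up to 0.108, 0.131 and 0.0693. Both lists together had 3 of 26 genes called, where 8.02% of all genes were, and 7 with Y signal as a block, 1 higher and 6 lower, where 17% were. Without control 4 the count over both lists was 10, where 23.6% of all genes were called. It was 0 without control 1, 2 or 3 or cinacalcet 2 or 3, where 1.54% to 2.25% were.

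Peptidases of the proximal tubule brush border form a list that shares Ace, Enpep and Mme with the members. Of 12 genes 11 were measured and 2 fell, Mep1b and Ace, with 10 negative estimates and a median of -0.46. With Y signal as a block 5 fell and 1 rose, and on the 5 Y-positive arrays 4 fell and 1 rose. The share of all genes called was 8.02% on the 8 arrays, 17% with the block and 7.85% on the 5 arrays. Without control 4 the list had 6 called, where 23.6% of all genes were, and without any of the other arrays but cinacalcet 1 it had 0. The 13 proximal tubule markers had a median of -0.08 and none was called on the 8 arrays, while 5 fell and none rose with Y signal as a block and 3 fell and none rose on the 5 Y-positive arrays. Among them were Fbp1, a gluconeogenic enzyme gene, at -0.47 (limma adjusted p = 0.0656) and Slc13a3, a dicarboxylate transporter gene, at 0.26 (adjusted p = 0.0861). Their mean level was 6.05 on control 4, 5.81 and 5.88 on cinacalcet 2 and 3, and 6.73 to 6.94 on the 5 Y-positive arrays.

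On the 8 arrays none of the other genes listed for the renin cell passed. Of the 29 genes of this list 25 were measured and none was called, with 13 positive and 12 negative estimates and a median of 0.10. Whole kidney RNA does not tie their signal to renin cells. The adenosine receptor gene Adora1, whose product lowers renin release, was at 0.62 (95% interval 0.25 to 1.00, limma adjusted p = 0.0561). The coactivator gene Crebbp was at -0.32 (adjusted p = 0.0654). The gap junction gene Gja5, whose product couples renin cells and which is named after its value was seen, was at -0.59 (adjusted p = 0.110) and at -0.74 with Y signal as a block (adjusted p = 0.00478). Casr, the drug's target receptor and likewise named after its value was seen, was at 0.52 (95% interval 0.13 to 0.91, adjusted p = 0.0941). With Y signal as a block 3 of the 25 genes rose and 2 fell, where 17% of all genes tested were called. Those called included Adora1 at 0.54 (limma adjusted p = 0.0279), Casr at 0.41 (adjusted p = 0.0304) and Crebbp at -0.33 (adjusted p = 0.0424).

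On the 8 arrays neither markers of the cells around the renin cell nor those of the macula densa were called. Of 6 macula densa genes 3 were measured, the lowest p being those of the protease gene Pappa2 at -0.48 (limma adjusted p = 0.276, and -0.64 with Y signal as a block, adjusted p = 0.0407) and of the cotransporter gene Slc12a1 at 0.15 (adjusted p = 0.609). The 10 vascular smooth muscle and mesangial markers had a median of -0.21, with 4 positive and 6 negative estimates. Ptn, a growth factor gene, was at -0.60 (adjusted p = 0.0652) and Tagln, a smooth muscle actin-binding protein gene, at -0.36 (adjusted p = 0.118). The 8 podocyte markers had a median of 0.16, with the transcription factor gene Wt1 at 0.47 (adjusted p = 0.178). Among the 10 kidney markers 1 rose, the nephron transcription factor gene Pax8, at 0.69 (adjusted p = 0.00801). With Y signal as a block 1 smooth muscle and mesangial marker fell, Ptn at -0.69 (limma adjusted p = 0.0124), as did 1 podocyte marker. Of the kidney markers 1 rose and 3 fell with the block, where 17% of all genes were called.

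Genes of steroid and salt response, known to act with angiotensin on tubular sodium transport, were called in both directions. Of 10 genes 9 were measured, 3 rose and 1 fell, where 3.37% of all genes were called as higher and 4.64% as lower. Per1, a clock gene induced by aldosterone and glucocorticoids, rose 1.78-fold (limma adjusted p = 0.00801). Sgk1, a kinase gene of sodium channel control, rose 2.33-fold (adjusted p = 0.0113). Scnn1a, the alpha subunit gene of the epithelial sodium channel, rose by 0.67 on the log2 scale (adjusted p = 0.0304), and Nr3c1, the glucocorticoid receptor gene, fell by 0.55 (adjusted p = 0.0103). The Scnn1a call was lost without any of controls 1 to 3 or cinacalcet 2, 3 or 4, at adjusted p of 0.0681 to 0.0918. With Y signal as a block 5 genes of this list rose and 2 fell, where 17% of all genes were called. On the 5 Y-positive arrays 2 rose and 1 fell, where 7.85% of all genes were called.

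**Figure D5:**
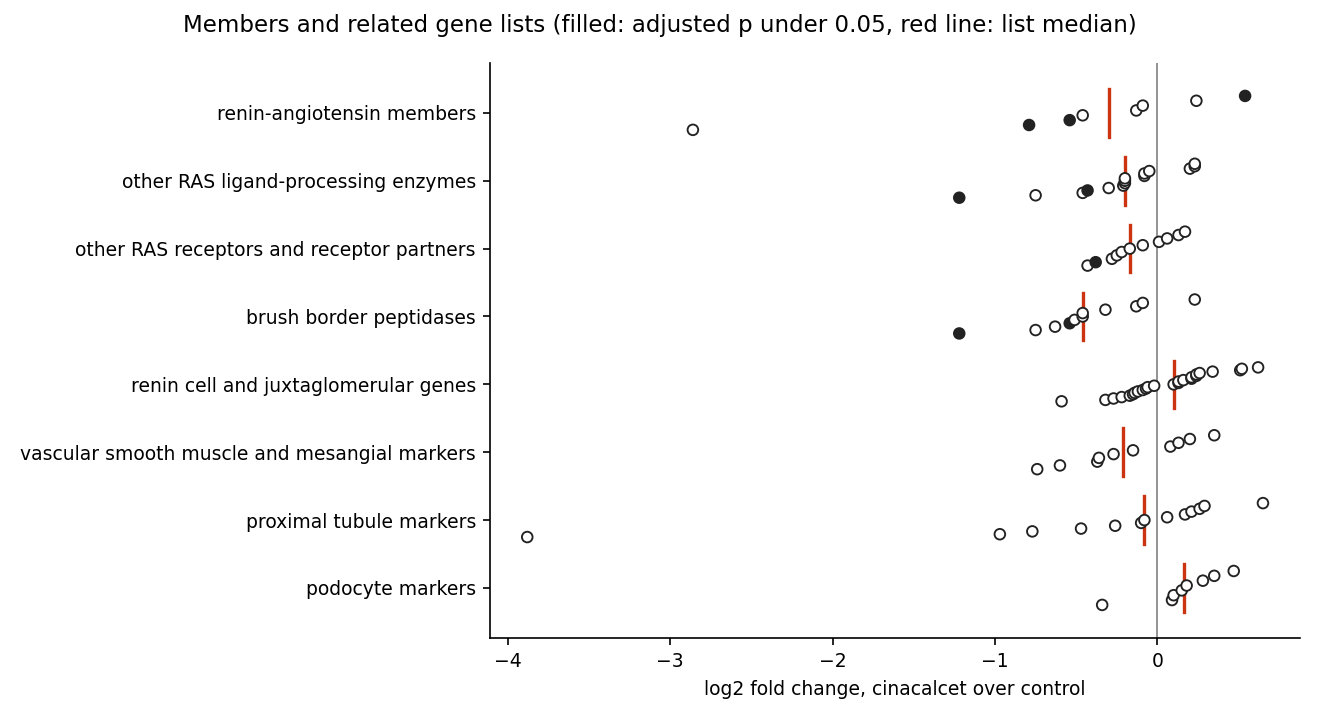
Log2 fold change, cinacalcet over control, of each measured gene of the members and 7 related lists (1 point per gene, filled where the adjusted p was under 0.05, red lines at list medians). Medians are -0.30 for the members, -0.46 for brush border peptidases and 0.10 for renin cell genes, and 0 of the renin cell, smooth muscle, proximal tubule and podocyte points are filled.

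As a description of likeness, the genes whose levels followed each member most closely over the 8 arrays were found by Pearson's r among all genes tested. The arrays share 1 slide and the group difference, so high values are common. Ren1 was followed most closely by the lectin gene Clec2h (r = 0.992), Ncapd2 (0.983) and the anion exchanger gene Slc26a6 (0.970). Agt was followed by Epb41 (0.982), Fyb2 (0.980) and the tocopherol carrier gene Ttpa (0.972), and Ace by the mitochondrial carrier gene Slc25a26 (0.992), Cd164 (0.989) and the zinc transporter gene Slc39a11 (0.987). Clec2h went from 3.77 to 4.22 on control arrays to 2.77 to 3.34 on cinacalcet arrays, and Slc26a6 from 1.56 to 1.91 to 0.30 to 0.69. Closest to Enpep were Wdcp (0.976), Nat8f7 (0.968) and Cyp2j5 (0.967), and to Mme Ppp2r5c (0.991), Lynx1 (0.984) and Mmp2 (0.980). Closest to Agtr1a were Dpy19l4 (0.956), Fam107b (0.954) and Frat2 (0.951), and to Atp6ap2 Atpif1 (0.989), H2ac22 (0.979) and Calm2 (0.971).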

How the data were processed

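The deposited files hold spot intensity of 8 one-colour arrays, background-corrected by Agilent Feature Extraction 11.0.1.1 per the file headers (9.5 per the submitters' processing notes), with no normalization between arrays recorded. Control spots were left out and 118 to 147 outlier spots per array set to missing. No spot was saturated. Spots of a probe were averaged, and the 75th percentile over all non-control spots was subtracted on the log2 scale. A probe had to be well above background on 4 or more arrays, and the brightest such probe stood for a gene. Names came from RefSeq accessions of GRCm38.p6, which named 27235 probes and left 28446 unnamed. Groups were compared with limma 3.58.1 in R 4.3.3 without covariates, and the fit was tested on simulated data.

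Members and gene lists were chosen with earlier results of these data known. Named genes are the members, up to 4 called genes of each list with the lowest p, or 2 where none passed, and the 3 genes most like each member that was above background on all arrays. Others are said to be chosen after their values were seen. Some genes that this rule or these lists include are not reported here. Replicate numbers did not pair the samples: deviations of same-numbered samples correlated at -0.56 to 0.34. All arrays lay on 1 slide with 1 scan time, so neither could be tested. Alternatives were other background corrections, scales, filters, probe rules and eBayes settings, array weights, blocks, subsets and single arrays left out. The normexp alternative used the median spot signal with an offset of 50.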

Additional observations from a re-analysis of the deposited data

Results flagged for a closer look

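The Mas1 level on control 4, at -3.29, stood apart from the other 3 controls, which lay between -0.01 and 0.38. Its gap to the nearest control divided by the group's range was 0.895 and passed the 95% limit of Dixon's test for 4 samples, a level that chance passes in about 1 of 20 groups. The ratio was taken for both groups of each of the 8 measured members, with no correction for their number. Control 4 is the control array without Y-linked signal. The next highest ratios were 0.825 for Mme, again on control 4, at 1.81, and 0.819 for Ren1 on cinacalcet 1, at -0.11, both under the limit. Explanations were not tested.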

How the results depend on the processing

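The falls of Ren1 and Ace and the rise of Agt kept their sign under every alternative run, and the adjusted p stayed under 0.05 in 16 of 25 for Ren1, 11 of 25 for Agt and 10 of 25 for Ace. Renin cell genes here include those of the macula densa. With replicate number as a block Ren1 was at -0.79 (adjusted p = 0.0878), Agt at 0.54 (0.151) and Ace at -0.54 (0.167), with 0 members and 0 genes of any list called, and 0 genes in all in limma (2869 at an unadjusted p under 0.05). Slide row as a block gave Agt 0.54 (0.0518), Ace -0.54 (0.0604), 1 member, 1 brush border gene and 1 renin cell gene. Slide column as a block compares control 3 with cinacalcet 2 and control 1 with cinacalcet 3. Both of these controls are Y-positive and both of these cinacalcet arrays Y-negative, so treatment and Y signal cannot be told apart in this fit. Slide column as a block gave Ren1 -0.58, Agt 0.40, Ace -0.65, Mme 0.77, Mas1 -4.36, Enpep -0.76, Atp6ap2 -0.04, 0 members and 34 genes. Within slide row 1 Ren1 was -0.90, Agt 0.41, Ace -0.59 and Mme 0.32 with 1 gene called, and within row 2 Ren1 was -0.67, Agt 0.66 and Ace -0.48 with 0 called, so 0 members passed in either row. Agtr1a was 0.39 in row 1 and 0.09 in row 2. Without the filter on dim probes Agt stood at 0.54 (0.0748) and Ace at -0.54 (0.0906), and 1 member, 0 other renin-angiotensin genes, 0 brush border genes and 367 genes were called. Normexp correction gave Ace -0.47 and Mas1 -1.51, and 1 brush border and 1 renin cell gene, the latter also with quantile normalization after it or a filter on all 8 arrays. Trend and robust settings called 2 renin cell genes, and the mean over probes put Mme at 0.04. Array weights, from 0.219 to 2.43, gave Agtr1a 0.29, Mme 0.36, Enpep -0.66, Mas1 -3.81, 6 members, 14 other renin-angiotensin, 8 brush border and 8 renin cell genes, and 5438 genes. Y signal as a block gave Mas1 -2.28, 7 other renin-angiotensin, 6 brush border and 6 renin cell genes, and 2417 genes. On the 5 Y-positive arrays Ren1 was -0.87 and Mas1 -3.02, with 5 brush border and 2 renin cell genes, and 1116 genes. On the 3 Y-negative arrays, a fit chosen after seeing the data, Ren1 was -0.73, Agt 0.48 and Ace -0.20, with 0 calls. For Atp6ap2, at -0.13, the exact permutation test gave an unadjusted p of 0.0286, which the 17.8% of genes with groups that do not overlap also reach. The cause of these shifts was not tested.

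Leaving out 1 array at a time gave -0.86 to -0.67 for Ren1, 0.44 to 0.60 for Agt, -0.65 to -0.47 for Ace, 0.18 to 0.32 for Agtr1a, -0.16 to -0.11 for Atp6ap2, -0.57 to -0.37 for Enpep, -3.73 to -2.51 for Mas1 and -0.30 to 0.31 for Mme. Calls ranged from 219 genes without control 2 to 3359 without control 4, from 0 to 4 members, 0 to 10 other renin-angiotensin genes, 0 to 6 brush border genes and 0 to 6 renin cell and macula densa genes. Spots near background, those of Mas1 on most cinacalcet arrays among them, limit the size of a fold change.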
